A study of Mus musculus with 24 samples.

Results

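Slc1a2, Slc1a3, Glul, Slc38a3, Slc25a18 and Glud1 encode the proteins by which astrocytes clear glutamate and turn it into glutamine or feed it into mitochondria. They were picked by gene name from the deposited tables, 6 genes of 32728 listed, and are described here over 24 libraries of cultured mouse neurons and astrocytes. All cultures came from mice whose Eif2ak3 (Perk) alleles carry loxP sites. The cells labelled Perk KO had been transduced with a lentivirus for active Cre recombinase, and those labelled WT with one for the inactive ΔCre, so every group carried both the floxed alleles and a virus. At day in vitro 14 the cultures received either 5 µg/mL tunicamycin (TM) or an equal volume of DMSO (control) for 24 hours. TM blocks N-linked glycosylation and so makes unfolded proteins build up in the endoplasmic reticulum, and PERK is a kinase of that compartment which then phosphorylates eIF2α. The 8 groups, WT control, WT TM, Perk KO control and Perk KO TM in each culture type, held 3 libraries each. The titles number biological replicates, and nothing in the labels ties a number to an animal or a dish. The p-values therefore rest on library-to-library spread, part of which may be technical.

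In the brain, glutamate released at synapses is taken up mainly by astrocytes through the sodium-coupled carriers GLT-1 (Slc1a2) and GLAST (Slc1a3). Glutamine synthetase (Glul) joins it to ammonia, and the glutamine leaves the astrocyte through system N carriers such as SNAT3 (Slc38a3), to be taken up by neurons and made into glutamate or GABA again. The remaining glutamate enters mitochondria, through carriers such as GC2 (Slc25a18), where glutamate dehydrogenase (Glud1) converts it to 2-oxoglutarate for the citric acid cycle. GLT-1 is known to be low in astrocytes grown without neurons and to rise when neurons are present, and GLAST is known to be the main uptake carrier of pure astrocyte cultures.

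The total counts ran from 16030022 to 25934747 reads per library. Eif2ak3 itself was lower in libraries labelled Perk KO in each of the 4 comparisons of genotype, by log2 differences from -1.94 ± 0.14 (SE) in control astrocytes to -3.44 ± 0.18 in TM-treated neurons, so some of its transcript remained. The neuron cultures also held astrocyte RNA. The 15 astrocyte markers summed to 3280 to 3811 CPM in WT control neuron cultures and 2871 to 4295 CPM in WT control astrocyte cultures. The summed neuron markers reached 6774 to 7336 CPM in the former and 306 to 348 CPM in the latter. CPM are read counts scaled to a common library total, here TMM-scaled over the 24 libraries. A level of these genes in a neuron culture is therefore not a level per neuron. Because whole cultures were sequenced, fewer cells of a type and less RNA per cell cannot be told apart in any result below.

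Of the 6 genes, 5 have an entry among the RefSeq promoters (GRCm38.p6). The 250 bases before the RefSeq start site are shown for Slc1a3 and Glul, which fell with TM in both WT culture types, and for Slc1a2, which did not pass the test in WT astrocytes. For Slc1a2 the run stops at 168 bases, where an annotated untranslated region begins, and its RefSeq start lies inside the gene span of the deposited tables. Capitals mark matches, on either strand, to the CCAAT box (CCAAT), the GC box (GGGCGG), the TATA box (TATAAA), the core of the cAMP response element (TGACG), the C/EBP-ATF element (TGATGNAA), the E-box (CACGTG) and an unfolded protein response element (TGACGTGG), the last of which contains the cAMP response core.
Slc1a3, chr15:8710808-8711057, minus strand: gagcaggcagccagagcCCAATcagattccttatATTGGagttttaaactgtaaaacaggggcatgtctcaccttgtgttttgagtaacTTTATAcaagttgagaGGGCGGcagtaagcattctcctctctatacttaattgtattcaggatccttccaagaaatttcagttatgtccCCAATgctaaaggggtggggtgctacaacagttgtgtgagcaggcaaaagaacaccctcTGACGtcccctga
Glul, chr1:153899679-153899928, plus strand: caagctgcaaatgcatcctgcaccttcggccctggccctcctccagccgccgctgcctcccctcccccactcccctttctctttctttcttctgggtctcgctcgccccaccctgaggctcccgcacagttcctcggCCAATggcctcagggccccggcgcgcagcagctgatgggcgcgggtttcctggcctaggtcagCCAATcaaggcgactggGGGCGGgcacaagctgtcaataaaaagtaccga
Slc1a2, chr2:102706188-102706355, plus strand: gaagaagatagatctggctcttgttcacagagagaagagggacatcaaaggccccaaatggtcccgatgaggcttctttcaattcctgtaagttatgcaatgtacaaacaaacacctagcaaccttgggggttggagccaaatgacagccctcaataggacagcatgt

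Slc1a3 held 3 CCAAT boxes in its 250 bases and Glul held 2, against 0 in the 250 bases of Slc1a2, and 0 also in those of Slc25a18 and Glud1, which fell with TM in both WT culture types as well. Among 32851 promoters of the same length 33.8% held at least 1 CCAAT box. Slc1a3 also had 1 cAMP response core, which 17.8% of promoters hold, and both Slc1a3 and Glul had 1 GC box, held by 32.7%. The C/EBP-ATF element was found in 3.45% of promoters, the E-box in 6.02%, the TATA box in 12.4% and the unfolded protein response element in 0.563%. None of these 250-base windows of the 5 genes held a C/EBP-ATF element, an E-box or an unfolded protein response element, which says only that those letters are not in these windows. The G and C bases made up 64.8% of the Glul window and 44.8% of each of the other windows shown, with a median of 52.4% over all promoters.

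In untreated WT astrocyte cultures the uptake carrier Slc1a3 and the mitochondrial enzyme Glud1 were the most abundant members per gene length and Slc1a2 the least. Levels between genes are compared as CPM per kilobase of the deposited gene length. Glud1 stood at 103 ± 20.4 (SD, n = 3) CPM per kilobase and Slc1a3 at 103 ± 27.1, which do not differ beyond their spread, followed by Glul at 76.5 ± 3.67. Slc38a3 at 43.7 ± 6.76 and Slc25a18 at 41.4 ± 14.5 CPM per kilobase overlapped in the middle of the order. Slc1a2 was at 4.94 ± 1.16 CPM per kilobase, far under the next gene. In WT neuron cultures Glul led with 198 ± 31.7 CPM per kilobase, before Slc1a3 with 108 ± 4.90 and Glud1 with 68.4 ± 2.52. There Slc25a18 at 31.6 ± 1.70 and Slc1a2 at 31.1 ± 8.63 CPM per kilobase did not differ beyond their spread, and Slc38a3 was lowest at 19.6 ± 2.86.

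The control cultures of WT neurons and astrocytes differed in 4 of the 6 genes at an adjusted p under 0.05 by edgeR's quasi-likelihood test with Benjamini-Hochberg adjustment over all genes tested, which is the test behind every adjusted p in the text unless another is named. The background is high here, since 71.1% of all genes tested differed between these cultures. On CPM scaled over the 24 libraries, Slc1a2 was at 380, 358 and 571 in the 3 neuron cultures and at 69.1, 76.0 and 47.1 in the 3 astrocyte cultures. The 2 ranges lie far apart, and the log2 difference was 2.81 ± 0.24 (adjusted p = 7.20e-06). Glul was also higher in neuron cultures, by a log2 difference of 1.53 ± 0.14 (adjusted p = 9.59e-06). The glutamine carrier Slc38a3 was lower there, by -0.999 ± 0.15 (adjusted p = 0.000323), as was Glud1, by -0.44 ± 0.15 (adjusted p = 0.0233), a call lost when any 1 of the 3 WT control neuron libraries was left out (adjusted p 0.0694 to 0.0737). Slc1a3 differed by 0.22 ± 0.18 (adjusted p = 0.282) and Slc25a18 by -0.24 ± 0.22 (adjusted p = 0.352), neither past the test. Without library 1 of the WT control astrocytes Slc1a3 passed, at 0.45 (adjusted p = 0.00697). In Perk KO control cultures, where 69.3% of genes tested differed, 2 of the 6 were higher in neuron cultures and 3 lower, with Slc1a2 at 3.62 ± 0.14 on the log2 scale and Slc25a18 at -0.78 ± 0.12 (adjusted p = 0.000224). With TM, 3 were higher and 1 lower in WT neuron cultures, where 70.6% of genes tested differed, and Slc25a18 was among the higher ones, at 1.24 ± 0.34 (adjusted p = 0.0104). There Slc38a3 gave -0.58 ± 0.25 (adjusted p = 0.0636) and passed in 5 of 9 other settings (adjusted p from 0.00310 in the fit of all 24 libraries to 0.0415 with DESeq2 among the 5), and without library 3 of the TM-treated WT astrocytes (-0.83, adjusted p = 0.00230). With TM in Perk KO, 2 were higher and 2 lower, where 56.0% of genes tested differed.

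**Figure D1:**
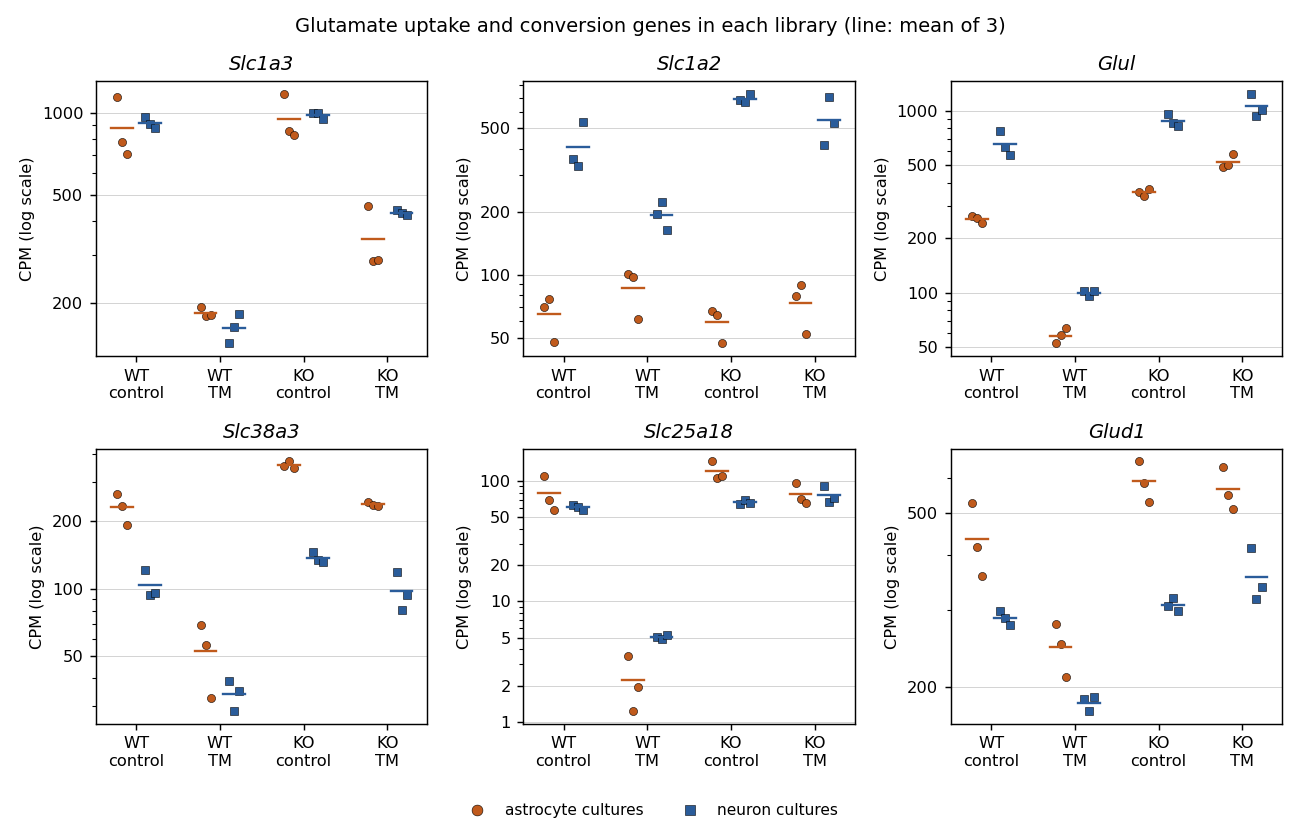
CPM of the 6 genes in each of the 24 libraries on log axes, TMM-scaled within a culture type (circles: astrocyte cultures, squares: neuron cultures, lines: means of 3 libraries), by genotype and treatment. Slc25a18 lies at 5.29 CPM or less in the 6 TM-treated WT libraries and at 57.0 CPM or more in the other 18, while Slc1a2 in astrocyte cultures stays between 47.1 and 101 CPM.

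TM lowered 5 of the 6 genes in WT astrocytes and left Slc1a2 with no fall. Across all genes tested in that comparison 27.7% were called lower, and the median log2 change was -0.01 over all genes against -2.15 over the 6. In WT neuron cultures all 6 were lower, where 24.8% of genes tested were called lower, with medians of 0.04 over all genes and -2.09 over the 6.

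The glutamate carrier Slc1a3 was at 1142, 783 and 708 CPM in WT control astrocytes and at 193, 179 and 181 CPM with TM. The groups do not overlap, and the treated mean was 21.0% of the control mean, a log2 change of -2.27 ± 0.20 (adjusted p = 9.11e-05). The same gene in WT neuron cultures went from 965, 914 and 882 CPM to 142, 163 and 182 CPM, by -2.54 ± 0.11 (adjusted p = 9.03e-07).

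Slc1a2, the other carrier, parted from it in astrocytes. Its levels were 69.9, 77.0 and 47.7 CPM in WT controls and 101, 97.5 and 61.8 CPM with TM, so the groups overlap, and the change of 0.40 ± 0.23 did not pass (adjusted p = 0.183). Library 3 was the lowest of its group under both treatments. Same-numbered astrocyte libraries deviated together across genes, and with the number as a replicate block the change was 0.40 ± 0.07 with an adjusted p of 0.00138. Each TM library stood above the control of the same number, at 145%, 127% and 130% of it. Without library 3 of the TM-treated WT astrocytes the unblocked fit also passed, at 0.60 (adjusted p = 0.0443). In WT neuron cultures Slc1a2 fell, from 357, 330 and 539 CPM to 196, 221 and 164 CPM, by -1.11 ± 0.19 (adjusted p = 0.00116). The test of the difference between the culture types gave -1.69 ± 0.33 (adjusted p = 0.00298, neuron response less astrocyte response). Of all genes tested 24.9% passed that test.

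Glul, the enzyme that makes glutamine, was at 264, 258 and 241 CPM in WT control astrocytes and at 52.6, 58.2 and 63.5 CPM with TM. That is 22.9% of the control mean, with no overlap, and a log2 change of -2.15 ± 0.11 (adjusted p = 1.81e-05). Its fall in WT neuron cultures was from 777, 628 and 573 CPM to 103, 95.3 and 102 CPM, by -2.76 ± 0.12 (adjusted p = 1.04e-06). The fall was larger in the neuron cultures by -0.78 ± 0.16 on the log2 scale (adjusted p = 0.00453).

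Slc38a3, the carrier that releases glutamine, fell beside it. Its CPM were 264, 234 and 193 in WT control astrocytes and 69.2, 56.2 and 32.6 with TM, a log2 change of -2.15 ± 0.27 (adjusted p = 0.000484). The change in WT neuron cultures, from 121, 93.9 and 96.1 CPM to 38.6, 28.4 and 34.9 CPM, was -1.64 ± 0.15 (adjusted p = 3.43e-05). The groups did not overlap in either culture type.

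Slc25a18, the mitochondrial glutamate carrier, had the largest fall of the 6 in both WT culture types. Raw counts were 2309, 1263 and 1079 in the WT control astrocytes and 61, 20 and 36 with TM, which are 110, 69.4 and 57.6 CPM against 3.51, 1.22 and 1.94 CPM. The treated mean was 2.81% of the control mean, a log2 change of -5.17 ± 0.40 (adjusted p = 6.07e-05). WT neuron cultures went from 63.4, 60.6 and 57.0 CPM to 5.09, 4.89 and 5.29 CPM, or 8.43% of the control mean, by -3.60 ± 0.12 (adjusted p = 2.53e-07). The smaller fall in neuron cultures was tested as a difference of 1.39 ± 0.42 (adjusted p = 0.0281), a call lost without library 1 or 3 of the TM-treated WT neurons or library 2 or 3 of the TM-treated WT astrocytes (highest adjusted p 0.0684). The last 32 bases of Slc25a18 overlap Atp6v1e1 on the opposite strand, an abundant gene, and whether the counting used strand is not given in the sources used here.

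Glud1, the mitochondrial enzyme downstream of that carrier, moved least among the genes that fell in WT astrocytes. It was at 528, 418 and 359 CPM in controls and at 278, 251 and 210 CPM with TM, a log2 change of -0.84 ± 0.18 (adjusted p = 0.00529). WT neuron cultures showed a fall from 298, 288 and 277 CPM to 188, 176 and 190 CPM, by -0.68 ± 0.08 (adjusted p = 0.000128). A processed pseudogene, Glud-ps, had a mean of 19.5 counts per library, which bounds the reads assigned to it and not those it shares with Glud1.

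**Figure D2:**
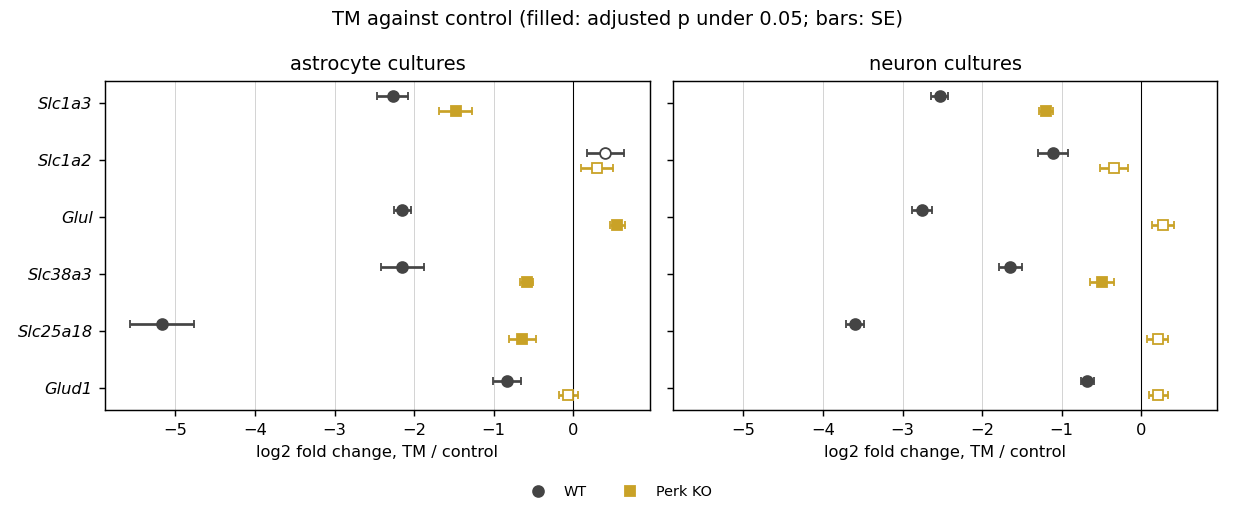
Log2 change with TM against control for each gene (bars: SE of 3 libraries against 3) in WT (circles) and Perk KO (squares), with filled symbols for an adjusted p under 0.05. The WT values of Slc25a18 reach -5.17 in astrocyte and -3.60 in neuron cultures, whereas in Perk KO its values are -0.64 and 0.21, and Slc1a3 is filled in both genotypes and both culture types.

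In Perk KO astrocytes TM lowered 3 of the 6 genes and raised 1, where 4.60% of all genes tested were called lower and 5.55% higher. Slc1a3 was at 1178, 855 and 828 CPM in Perk KO controls and at 454, 286 and 289 CPM with TM. The groups do not overlap, and the log2 change was -1.48 ± 0.21 (adjusted p = 0.00225), so that 36.0% of the control mean remained. Slc38a3 fell from 354, 370 and 347 CPM to 245, 236 and 235 CPM, by -0.58 ± 0.08 (adjusted p = 0.00213). Its call was lost in the fit over all 24 libraries (adjusted p = 0.0550).

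Glul took the opposite direction in these cells. It rose from 357, 341 and 371 CPM to 490, 504 and 578 CPM, 147% of the control mean, by 0.55 ± 0.09 (adjusted p = 0.00592). Slc25a18 was at 145, 105 and 111 CPM in controls and at 96.7, 70.5 and 65.6 CPM with TM, a log2 change of -0.64 ± 0.17 at the edge of the threshold (adjusted p = 0.0479). That call was lost when any of the 3 Perk KO control libraries, or library 2 or 3 of the TM-treated ones, was left out (highest adjusted p 0.192), and in the fit over all 24 libraries (0.0760).

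Slc1a2 and Glud1 did not pass in Perk KO astrocytes. Slc1a2 changed by 0.30 ± 0.20 (adjusted p = 0.431), from 67.1, 64.6 and 47.1 CPM to 79.0, 89.3 and 52.5 CPM. With the replicate block the change was 0.29 with an adjusted p of 0.0106, and each TM library stood above its same-numbered control, at 118%, 138% and 111% of it. Glud1 was level within the spread, with 655, 585 and 530 CPM in controls and 638, 548 and 510 CPM with TM (log2 change -0.07 ± 0.12, adjusted p = 0.813).

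In Perk KO neuron cultures TM lowered Slc1a3 and Slc38a3 and no other member passed, where 10.8% of all genes tested were called lower. Slc1a3 went from 1001, 999 and 949 CPM to 440, 429 and 420 CPM, a log2 change of -1.20 ± 0.09 (adjusted p = 0.000290). Slc38a3 went from 146, 134 and 132 CPM to 119, 80.3 and 94.0 CPM, by -0.49 ± 0.15 (adjusted p = 0.0452), a call lost without any 1 of the 3 Perk KO control libraries or without library 3 of the treated ones (highest adjusted p 0.146). The TM levels of Glul were 1243, 933 and 1013 CPM against 965, 853 and 823 CPM in controls, which overlap (log2 change 0.27 ± 0.14, adjusted p = 0.187). For Slc25a18 the values were 91.4, 66.8 and 71.9 CPM against 63.9, 69.3 and 66.0 CPM, also overlapping (0.21 ± 0.13, adjusted p = 0.292). Slc1a2 changed by -0.34 ± 0.18 (adjusted p = 0.206), and without library 2 of the TM-treated group by -0.56 (adjusted p = 0.00705).

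Tested as the difference between the TM responses of Perk KO and WT, 4 of the 6 genes differed in astrocytes and 5 in neuron cultures, each with a higher value in Perk KO. The background was 19.8% of genes tested with a higher value in astrocytes and 14.5% in neuron cultures. Slc25a18 differed by 4.51 ± 0.44 on the log2 scale in astrocytes (adjusted p = 1.97e-05) and by 3.78 ± 0.17 in neuron cultures (adjusted p = 2.10e-07). Glul differed by 2.68 ± 0.14 (adjusted p = 7.73e-07) and 3.00 ± 0.19 (adjusted p = 1.20e-06), and Slc38a3 by 1.55 ± 0.29 (adjusted p = 0.00161) and 1.12 ± 0.22 (adjusted p = 0.00252). The differences of Glud1 were smaller, 0.76 ± 0.22 (adjusted p = 0.0183) and 0.85 ± 0.13 (adjusted p = 0.000612).

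Of the uptake carriers, Slc1a3 differed by 1.31 ± 0.13 in neuron cultures (adjusted p = 2.38e-05) and by 0.78 ± 0.30 in astrocytes, which did not pass (adjusted p = 0.0649) but passed with the replicate block (0.72, adjusted p = 0.00140) and in 6 of 7 other settings in all. Slc1a2 gave -0.12 ± 0.34 in astrocytes (adjusted p = 0.820). In neuron cultures it gave 0.74 ± 0.29 (adjusted p = 0.0735). It passed there in 5 of 7 other settings (adjusted p 0.0157 to 0.0871 over the 7), and without library 2 of the WT controls (0.87, adjusted p = 0.0499) or library 1 of the TM-treated Perk KO group (0.91, adjusted p = 0.0245). Whether these differences between genotypes were themselves unlike in neuron and astrocyte cultures was tested over all 24 libraries with edgeR's quasi-likelihood test. That test called 0 of the 6, with 0 at an unadjusted p under 0.05 (lowest 0.0519, Slc1a2), where 5.51% of all genes tested passed. DESeq2 also called 0 of the 6, and over all genes it called 1531 against 878 by edgeR. With the replicate block Slc1a3 passed (0.72, adjusted p = 0.0379), and with the block and GC correction Slc1a3 (adjusted p = 0.0254) and Slc1a2 (adjusted p = 0.0209) did. In Perk KO the TM response of Slc25a18 was higher in neuron than astrocyte cultures by 0.85 ± 0.24 (adjusted p = 0.0364, 11.7% of genes tested passed), a call lost without any 1 of 8 of the 12 libraries (highest adjusted p 0.0965).

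In control cultures the Perk KO libraries differed less from WT, and where members passed they were higher. In control astrocytes 2 of the 6 were called, against 4.71% of genes tested called higher. Slc38a3, at 354, 370 and 347 CPM against 264, 234 and 193 CPM in WT, was higher by 0.63 ± 0.12 (adjusted p = 0.0184), and Glul, at 357, 341 and 371 CPM against 264, 258 and 241 CPM, by 0.48 ± 0.09 (adjusted p = 0.0167). Both ranges are apart. With the replicate block Slc25a18 (0.64, adjusted p = 0.00119) and Glud1 (0.45, adjusted p = 0.00212) also passed, 4 genes in all. The background was larger in that fit too. Of 15196 genes tested, 5730 were called in either direction with the block, against 2260 without it. The authors' deposited table has the same 4 at an adjusted p under 0.05, with 0.0486 for Slc25a18 and 0.0472 for Glud1. Leaving out library 2 or 3 of the WT controls, or library 1 or 2 of the Perk KO controls, left 0 of the 6 called, and leaving out library 1 of the WT controls gave 4.

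In control neuron cultures 3 of the 6 were called higher in Perk KO, against 12.2% of genes tested. Slc1a2 stood at 682, 664 and 732 CPM against 357, 330 and 539 CPM in WT, a log2 difference of 0.76 ± 0.17 (adjusted p = 0.0182). Glul was higher by 0.41 ± 0.12 (adjusted p = 0.0463) and Slc38a3 by 0.40 ± 0.11 (adjusted p = 0.0367). The count fell to 0 without any 1 of the 3 Perk KO control libraries and to 1 without library 2 of the WT controls. Without library 1 of the WT controls Slc1a2 was lost (adjusted p = 0.0709), and in the fit of all 24 libraries Slc38a3 was (0.174). Slc1a3, Slc25a18 and Glud1 differed by 0.09 to 0.13 and did not pass, though Slc25a18 did with the GC correction (0.27, adjusted p = 0.0401).

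With TM the genotypes lay far apart. In TM-treated astrocytes 5 of the 6 were higher in Perk KO, against 32.1% of genes tested called higher, and in TM-treated neuron cultures 6 of 6 were, against 20.7%. Slc25a18 was 35.3-fold higher in Perk KO astrocytes (log2 difference 5.14 ± 0.32, adjusted p = 8.19e-06) and 15.7-fold higher in Perk KO neuron cultures (3.98 ± 0.17, adjusted p = 1.80e-05). Glul was 9.16-fold higher (3.20 ± 0.13, adjusted p = 2.09e-06) and 11.1-fold higher (3.48 ± 0.15, adjusted p = 1.80e-05). For Slc38a3 the log2 differences were 2.21 ± 0.24 and 1.59 ± 0.18, for Glud1 1.22 ± 0.14 and 1.02 ± 0.13, and for Slc1a3 0.92 ± 0.18 and 1.46 ± 0.12. Slc1a2 differed by -0.21 ± 0.23 in astrocytes (adjusted p = 0.450) and by 1.56 ± 0.19 in neuron cultures (adjusted p = 0.000444). The comparisons with TM and those between genotypes share libraries, so their values are set side by side and not read as separate evidence.

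**Figure D3:**
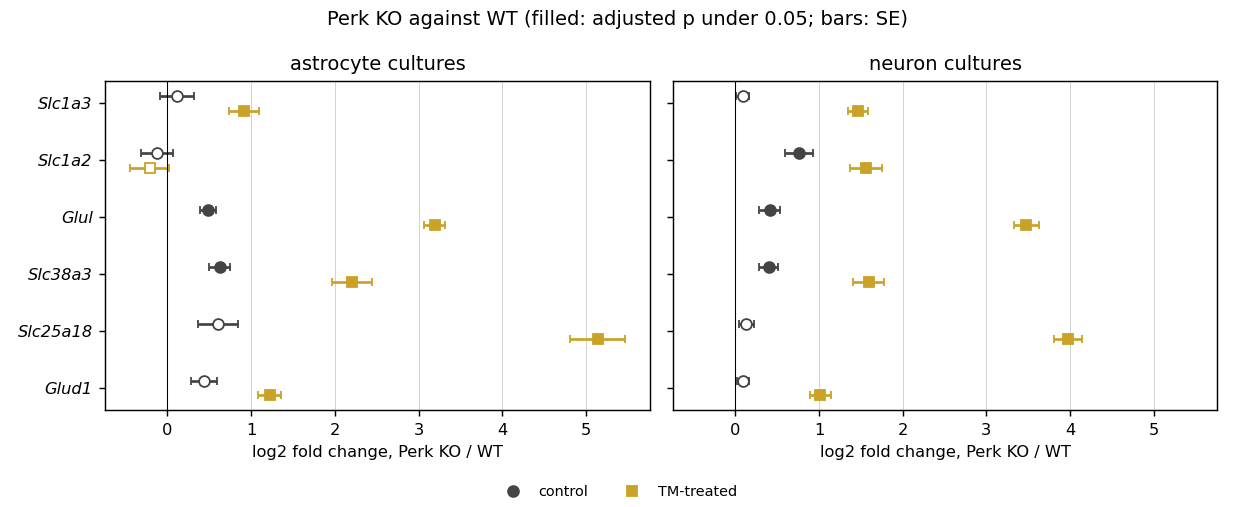
Log2 difference of Perk KO against WT for each gene (bars: SE of 3 libraries against 3) in control (circles) and TM-treated cultures (squares), with filled symbols for an adjusted p under 0.05. Control values lie between -0.12 and 0.76, and TM-treated values reach 5.14 for Slc25a18 in astrocyte cultures.

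The ratio of Glul to Glud1 transcripts, in CPM per kilobase, moved with TM in WT cultures. It was 3.30, 2.76 and 2.62 in WT control neuron cultures and 0.692, 0.685 and 0.679 with TM, and 3.99, 3.38 and 3.49 in Perk KO controls against 3.79, 3.72 and 3.79 with TM. In astrocytes the ratio was 0.634 to 0.850 in WT controls and 0.239 to 0.383 with TM, while in Perk KO it was 0.691 to 0.887 in controls and 0.973 to 1.44 with TM. The WT ratios fell below their controls and the Perk KO astrocyte ratios lay above theirs, with no overlap. The ratio of the carriers, Slc1a2 to Slc1a3, was higher with TM in each of the 4 comparisons with no overlap. It went from between 0.0398 and 0.0639 to between 0.222 and 0.354 in WT astrocytes and from between 0.0370 and 0.0491 to between 0.113 and 0.203 in Perk KO astrocytes. In neuron cultures it went from 0.235 to 0.397 up to 0.584 to 0.896 in WT, and from 0.432 to 0.502 up to 0.612 to 1.07 in Perk KO. These ratios are a description of the libraries, with no test.

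**Figure D4:**
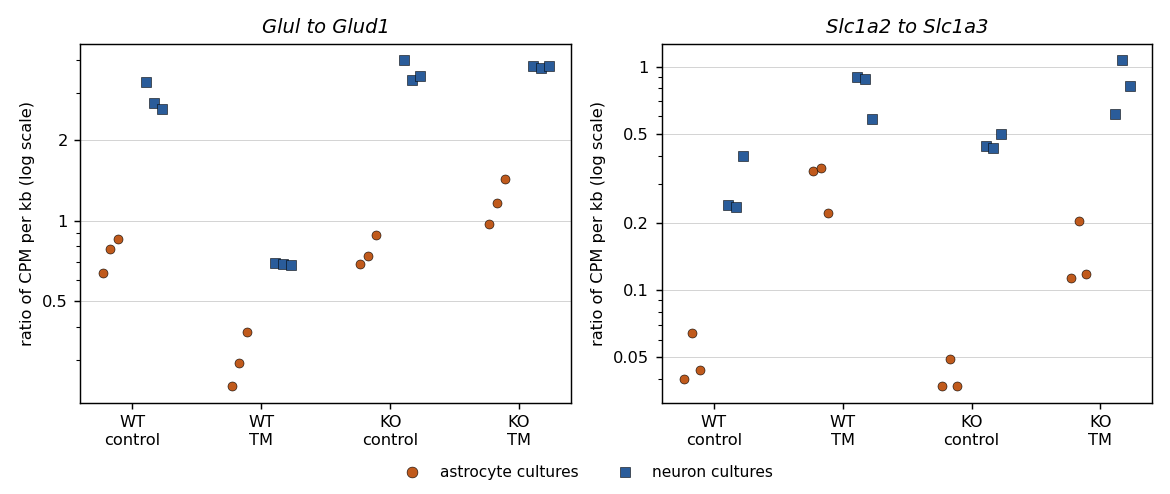
Ratio of CPM per kilobase in each library on log axes (circles: astrocyte cultures, squares: neuron cultures), Glul to Glud1 at left and Slc1a2 to Slc1a3 at right. The 3 TM-treated WT neuron cultures lie at 0.679 to 0.692 for Glul to Glud1, below the other 9 neuron cultures, and the carrier ratio is higher with TM in both genotypes.

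In WT cultures most astrocyte markers fell with TM, as most of the 6 genes did, while in Perk KO the directions were mixed. In WT astrocytes 13 of 14 astrocyte markers tested were lower with TM, where 27.7% of all genes tested were lower (median log2 change -3.00), and their summed level went from between 2909 and 4347 CPM to between 595 and 678 CPM. The exception was Gja1, the gap junction protein connexin 43, at -0.27 (adjusted p = 0.148). Gjb6 was at 0 in all 6 WT astrocyte libraries, and S100b was at 0 in 1 TM-treated WT library. In WT neuron cultures 13 of 14 were lower, against 24.8% of all genes (median -1.34; sum 1209 to 1455 CPM with TM). In Perk KO astrocytes 5 of 14 were lower, against 4.60% of all genes (median -0.35; sum 4657 to 5698 CPM in controls and 3452 to 4171 CPM with TM), and in Perk KO neuron cultures 6 of 15 were higher and 1 lower, against 13.1% and 10.8% of all genes (sum 4244 to 4531 CPM in controls and 4526 to 6293 CPM with TM). Of 15 neuron markers, 11 were lower with TM in WT neuron cultures and 13 in Perk KO neuron cultures, where 24.8% and 10.8% of all genes were. Markers of other cells were lower with TM in WT as well, and some of them in Perk KO. The summed oligodendrocyte lineage markers went from between 402 and 425 CPM to between 102 and 106 CPM in WT astrocytes (4 of 6 tested lower), and 9 of 10 were lower in WT neuron cultures. Fibroblast and mural markers went from between 1366 and 1545 CPM to between 387 and 502 CPM in WT astrocytes (5 of 10 lower). Of the microglia markers 6 of 11 were lower there, with summed control levels of 179 CPM in library 1 and 35.5 and 58.2 CPM in the others. In Perk KO astrocytes the fibroblast and mural sum went from between 1306 and 1959 CPM to between 658 and 893 CPM (3 of 10 lower). Perk KO neuron cultures went from between 494 and 642 CPM to between 329 and 339 CPM (3 of 11 lower, 1 higher). Microglia markers were lower in 1 of 11 and 5 of 11. Oligodendrocyte lineage markers were lower in 2 of 7 (1 higher) and 1 of 9.

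Set per 100 CPM of the summed astrocyte markers, the members did not keep 1 ratio. Slc25a18 went from between 1.90 and 2.54 to between 0.180 and 0.523 in WT astrocytes with TM, and from between 1.77 and 1.85 to between 0.350 and 0.408 in WT neuron cultures, a lower share in both. Glud1 went the other way in WT astrocytes, from between 11.5 and 12.3 to between 35.4 and 41.5, and so did Slc1a2, from between 1.61 and 2.11 to between 10.4 and 15.1. Glul in WT astrocytes ran from 6.08 to 8.27 in controls and from 7.83 to 10.7 with TM, which overlap. Its share in WT neuron cultures went from between 18.5 and 21.7 to between 7.05 and 7.88. Slc1a3 per 100 marker CPM was lower with TM in both Perk KO culture types, with 16.4 to 20.7 against 8.06 to 10.9 in astrocytes and 21.9 to 23.6 against 6.998 to 9.47 in neuron cultures. Its share was lower in WT neuron cultures as well, with 27.0 to 28.5 in controls against 9.78 to 14.0 with TM. Only in WT astrocytes was it higher, with 21.5 to 26.3 in controls against 26.5 to 30.4 with TM. The marker sum gives most weight to abundant markers, which did not all change alike. In WT astrocytes 13 of 14 markers tested fell, while Gja1 had 4440 to 6857 counts in controls and 3790 to 4278 with TM. The shares therefore depend on which markers are summed. The part of the marker change in the members' changes was not tested.

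**Figure D5:**
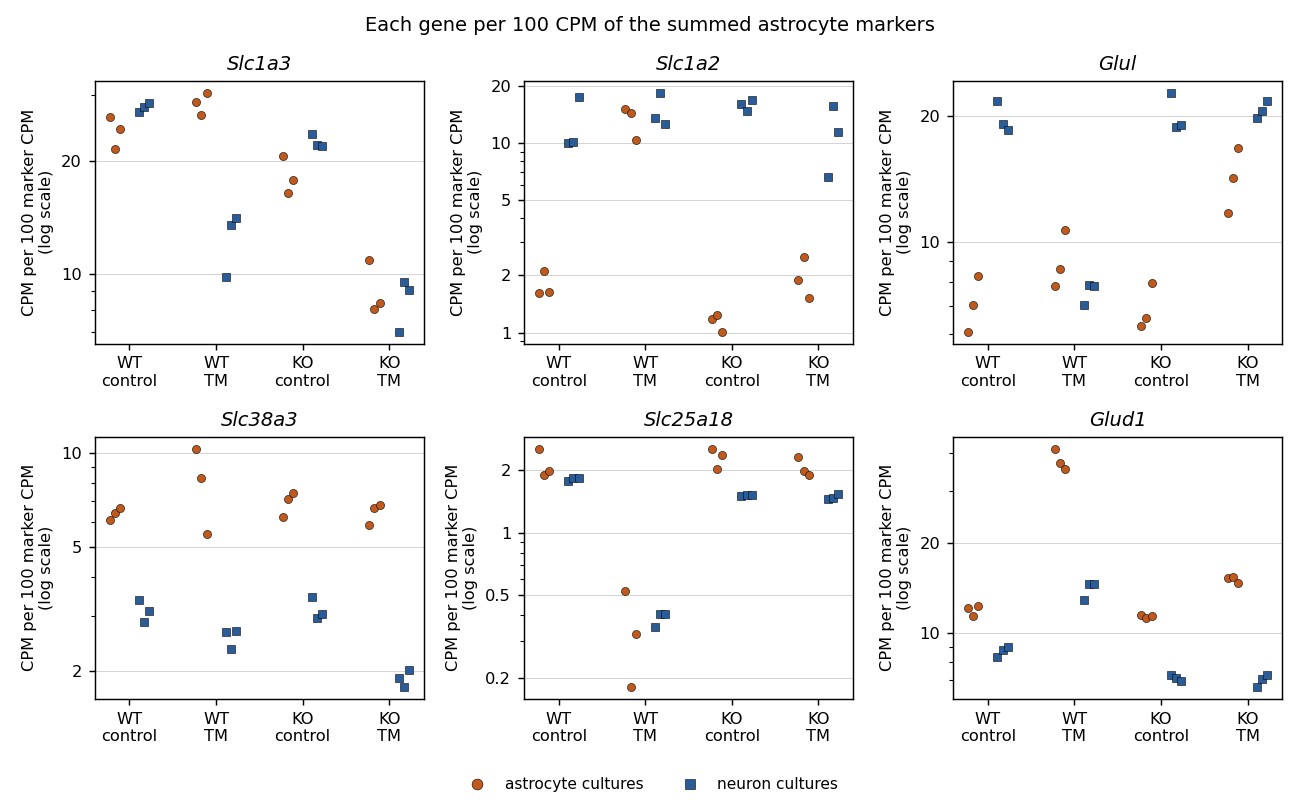
CPM of each gene per 100 CPM of the 15 summed astrocyte markers, per library on log axes (circles: astrocyte cultures, squares: neuron cultures). In WT astrocytes with TM, Slc25a18 lies at 0.523 or less and Glud1 at 35.4 or more, so the members part from the marker sum in both directions.

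The other genes of glutamate and glutamine handling were read from 5 lists. Of 7 further glutamine carriers tested, 6 rose with TM in WT astrocytes and 0 fell (median log2 change 0.80), and 5 rose in WT neuron cultures (median 1.08), where 25.0% and 27.0% of all genes tested were called higher. The leucine and glutamine exchanger Slc7a5 rose by 1.56 ± 0.18 in WT astrocytes (adjusted p = 0.000348) and by 2.09 ± 0.10 in WT neuron cultures (adjusted p = 1.73e-06). Slc38a2, the SNAT2 carrier that brings glutamine into cells, rose by 1.03 ± 0.13 and 1.84 ± 0.14. In Perk KO, 3 of 7 rose in astrocytes and 6 of 7 in neuron cultures, with Slc38a2 at 0.60 ± 0.09 and 1.103 ± 0.11. Of all genes tested, 5.55% were called higher in Perk KO astrocytes and 13.1% in Perk KO neuron cultures.

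Most enzymes that use or make glutamate and glutamine rose with TM in WT cultures. In WT astrocytes 10 of 16 tested were higher and 2 lower (median 0.77), and in WT neuron cultures 12 of 17 were higher and 3 lower (median 0.76), where 25.0% and 27.0% of all genes tested were called higher. Gfpt1, which takes the amide of glutamine for hexosamine synthesis, rose by 2.55 ± 0.18 in WT astrocytes and 1.77 ± 0.09 in WT neuron cultures, and the branched-chain aminotransferase Bcat1 by 2.64 ± 0.24 and 1.74 ± 0.09. Aldh18a1, which turns glutamate into a precursor of proline, rose by 1.98 ± 0.09 in WT neuron cultures. In Perk KO, 5 of 16 were higher and 0 lower in astrocytes, and 12 of 17 were higher and 2 lower in neuron cultures, against 5.55% and 13.1% of all genes called higher.

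The list of 13 other glutamate and aspartate carriers also holds a heavy chain and a neutral amino acid exchanger, both named below. In it 4 of 10 tested genes rose and 1 fell in WT astrocytes, and 5 of 13 rose and 7 fell in WT neuron cultures. Over all genes 25.0% and 27.0% were called higher and 27.7% and 24.8% lower. Those that rose included Slc3a2, the heavy chain shared by several amino acid exchangers, by 1.75 ± 0.18 and 2.86 ± 0.11, and the neutral amino acid exchanger Slc1a5, by 1.43 ± 0.13 and 2.09 ± 0.15. Slc7a11, the exchanger of cystine for glutamate, rose by 1.59 ± 0.25 in WT astrocytes. Slc3a2 also rose in Perk KO astrocytes, by 2.50 ± 0.15, where 3 of 10 rose and 1 fell (5.55% and 4.60% of all genes). The counts in Perk KO neuron cultures were 5 higher and 3 lower of 13 (13.1% and 10.8% of all genes), with Slc17a6, a vesicular glutamate carrier of neurons, lower by -1.57 ± 0.21 (adjusted p = 0.00209).

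Genes of GABA handling and of astrocyte ion and water balance went the way of the members in WT. In WT astrocytes 3 of 4 GABA genes tested were lower and 0 higher, and in WT neuron cultures 6 of 7 were lower, among them Slc6a11, the GAT-3 carrier, at -1.57 ± 0.08. Of the ion, water and gap junction genes 6 of 7 were lower in both WT culture types. Over all genes 27.7% in WT astrocytes and 24.8% in WT neuron cultures were called lower, 4.60% in Perk KO astrocytes and 10.8% in Perk KO neuron cultures. In Perk KO astrocytes 0 of 5 GABA genes passed edgeR's test, and 1 of 7 ion and water genes was lower, Atp1b2 at -1.08 ± 0.12. Perk KO neuron cultures had 1 of 7 GABA genes lower, and 2 of 8 ion and water genes higher and 1 lower. Some genes of the ion and water list are also among the astrocyte markers.

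Across the 12 libraries of a culture type the genes most like each member by Pearson r of log2 CPM are given as a description. The libraries share groups and treatments, which sets much of these values. In neuron cultures Slc25a18 was most like Aldh1l1, an astrocyte folate enzyme (r = 0.998), and Glul was most like Gas6 (r = 0.995). In astrocytes Slc25a18 was most like Ndrg2 (r = 0.996) and Glul most like Gldc, a subunit of the glycine cleavage system (r = 0.996). Pbxip1 was among the nearest 2 genes of Slc1a3 in both culture types (r = 0.982 in astrocytes and 0.994 in neuron cultures). Among the members themselves, Slc1a2 had r between -0.45 and -0.23 with the other 5 in astrocytes and between 0.76 and 0.87 in neuron cultures, and Glul and Slc25a18 had 0.93 and 0.99.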

How the data were processed

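RNA from 24 cultures was sequenced as paired-end reads. Per the submitters' processing notes, fastp, HISAT2, featureCounts and DESeq2 were used with GRCm38.p6; which version was run, for which step, and whether strand was used is not given in the sources used here. For this series the authors deposited 8 tables holding raw read counts per gene, and per the file headers also gene length, log2 fold changes and p-values of their own. The deposited gene lengths scaled CPM per kilobase. Gene positions are those of GENCODE M21 for the 6 genes: Slc1a2 on chromosome 2 (102658659 to 102790784, plus strand), Slc1a3 on 15 (8634124 to 8710764, minus), Glul on 1 (153899944 to 153909723, plus), Slc25a18 on 6 (120773578 to 120794336, plus), Glud1 on 14 (34310727 to 34345265, plus) and Slc38a3 on 9 (107650634 to 107669530, minus).

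Counts were fitted with edgeR 4.0.16 in R 4.3.3 (TMM scaling, quasi-likelihood F test), on the libraries of each comparison keeping every gene that averaged 10 counts or more, and p-values were adjusted by Benjamini-Hochberg over all of them (threshold 0.05). All 6 genes passed the filter in each comparison; their lowest count in a library was 20. CPM were TMM-scaled within a culture type, or over 24 libraries where culture types are compared. SE is the log2 change divided by the root of F. The fit was tested on simulated data. Replicates differed by more than counting noise in 24 of 24 pairs (chi-square per degree of freedom 6.60 to 64.2).

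Same-numbered astrocyte libraries deviated together in 18 of 18 pairs (r of deviations from group means 0.213 to 0.534), so the number was also fitted as a block. The block was run in every comparison, also within neuron cultures, where such pairs did not all deviate together. Comparisons of neuron against astrocyte cultures shared the block between culture types, and interactions over both had it within each. The pairing comes from the data and the titles' numbers, which the labels do not explain. Alternatives were no filter, DESeq2 size factors, DESeq2 1.42.0, the block, a GC correction alone and with the block, 1 fit of all 24 libraries, other scalings between culture types, and leaving out each library. The members, the gene lists and the tests were chosen with earlier results of these data known. Text names the 6 genes, at most 3 genes of each list per comparison (those of smallest p), the 2 genes most like each member (protein-coding, mean of at least 100 counts) and Eif2ak3; Gja1, Gjb6 and S100b were chosen after their values were seen. Slc38a3 had no entry among the promoters. A few list genes are not reported here.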

Additional observations from a re-analysis of the deposited data

Results flagged for a closer look

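The TM response differed between genotypes, or between culture types, in 13 tests by edgeR's quasi-likelihood test of the difference itself. Between Perk KO and WT astrocytes the log2 difference in response was 2.68 for Glul, 4.51 for Slc25a18, 0.76 for Glud1 and 1.55 for Slc38a3. Between Perk KO and WT neuron cultures it was 1.31 for Slc1a3, 3.00 for Glul, 3.78 for Slc25a18, 0.85 for Glud1 and 1.12 for Slc38a3. Between neuron and astrocyte cultures it was -1.69 for Slc1a2, -0.78 for Glul and 1.39 for Slc25a18 in WT, and 0.85 for Slc25a18 in Perk KO. The adjusted p ran from 2.10e-07 (Slc25a18, genotypes, neuron cultures) to 0.0364 (Slc25a18, culture types, Perk KO). Of all genes tested, 19.8% in astrocytes and 14.5% in neuron cultures had a higher response in Perk KO. Between culture types 24.9% passed in WT and 11.7% in Perk KO. Both culture type calls of Slc25a18 were lost without certain single libraries (highest adjusted p 0.0684 and 0.0965). The one in Perk KO was also lost with the GC correction (adjusted p = 0.0853) and in the fit of all 24 libraries (0.104).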

How the results depend on the processing

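No direction called reversed under an alternative. The number of the 6 genes called for TM in Perk KO astrocytes was 4 and became 2 in 1 fit of all 24 libraries. For Perk KO against WT in control astrocytes it was 2 and became 4 with DESeq2, with the replicate block and with the block and GC correction. For the culture type difference of the TM response in Perk KO it was 1 and became 2 with no filter, 0 with the GC correction, 2 with that correction and the block, and 0 with all 24 libraries. For the 3-way difference it was 0 and became 1 with the block (Slc1a3, 0.72, adjusted p = 0.0379) and 2 with the block and GC correction. The cause was not tested. Leaving out 1 library gave 1 to 3 genes for TM in Perk KO neurons (2 with all), 0 to 4 for genotype in control astrocytes, 0 to 3 in control neurons (3 with all), 3 to 4 for TM in Perk KO astrocytes, 5 to 6 for TM in WT astrocytes, and 0 to 2 for the culture type difference in Perk KO and 2 to 4 in WT (3 with all). It gave 5 in TM-treated astrocytes and 6 in TM-treated neurons for genotype, 6 for TM in WT neurons, 4 to 5 and 5 to 6 for the genotype difference of the TM response in astrocytes and neurons, and 0 for the 3-way difference. Between culture types it gave 3 to 5 (WT control, 4 with all; WT TM, 4), 5 to 6 (Perk KO control) and 4 to 5 (Perk KO TM).

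The replicate block raised the count over all genes from 1539 to 4288 (4358 with GC correction) for TM in Perk KO astrocytes, from 2260 to 5730 (5735) for genotype in control astrocytes, and from 878 to 1842 (2485) for the 3-way difference, where DESeq2 gave 1531; for the culture type difference in Perk KO the block with GC correction gave 3112 against 1875. Without library 2 of the WT control astrocytes the count for genotype in control astrocytes was 50, and without library 3 of the Perk KO control neurons that in control neurons was 257 against 3370. Leaving out 1 library also moved the count over all genes to between 1972 and 5844 for TM in Perk KO neurons (3858 with all), to 807 without library 2 of the TM-treated Perk KO astrocytes for TM in Perk KO astrocytes, and to between 1010 and 3383 for the culture type difference in Perk KO; the highest counts for genotype in controls were 4138 in astrocytes and 5414 in neurons. In neuron cultures same-numbered libraries correlated at -0.387 to 0.300, with 9 of 18 pairs over 0.1. Whether they share more than a number there was not tested. The block alone changed no call of the 6 genes in comparisons within neuron cultures. Scaling by library totals moved the median of all genes to -0.22 between WT control culture types, and no member's call changed with it. Counts of 20 to 61 for Slc25a18 in TM-treated WT astrocytes limit the precision of its fold change.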
